A study of Mus musculus with 34 samples.

Results

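The comparison is between long and short fragments in liver RNA-seq libraries depleted of ribosomal RNA by pull-down. It uses 6 of the 34 libraries of a mouse series on library preparation, chosen by their labels: liver, rRNA pull-down, batch 2, fragment length Long (3 libraries) or Short (3 libraries). Each group holds 1 library made at a slow, 1 at a medium and 1 at a fast PCR ramp rate, the speed at which the thermocycler changes temperature, so each long library has a short partner of the same ramp rate. All 6 started from 200 ng of liver RNA of a wild-type C57BL/6J mouse aged 12 weeks, extracted with TRIzol and RNeasy. They were built with the TruSeq Stranded Total RNA chemistry, xGen UDI-UMI adapters and 13 PCR cycles. The animal is called male in the growth text and female in a sample field, and the pull-down libraries held 0 to 3 counts of Xist and 48 to 2515 counts of the Y-linked gene Ddx3y. A further 3 pull-down libraries with medium fragments also entered the fits, for the estimate of spread, the scaling and the filter. In fits without the slow long library they also bear on the long minus short change, through the ramp terms. The 9 rRNA digestion libraries (Ribo-Zero Plus, batch 2) and 9 polyA libraries (TruSeq Stranded mRNA, batch 1) of the same liver served for comparison. Since every library came from 1 animal, the p-values say nothing of differences between mice. Within a method, each combination of length and ramp rate holds 1 library. The spread behind the p-values therefore mixes differences between preparations with any change of the length effect by ramp rate. Fragment sizes in base pairs are not given in the sources used here.

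Pull-down removes ribosomal RNA with capture probes and leaves messenger RNAs, mitochondrial transcripts and small structured RNAs in the library. A sequenced fragment cannot be longer than the RNA it comes from, PCR copies fragments unequally by their content of G and C bases (GC content), and a longer stretch of sequence is easier to place among near-identical genes. All of these bear on liver, where hepatocytes carry many mitochondria, secrete abundant plasma proteins and express gene families, such as the major urinary proteins, whose members are nearly identical. Salmon, named in the submitters' processing notes, divides reads that match several transcripts between them, so the counts of near-identical genes and pseudogenes are uncertain one by one.

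The RNAs on which the results turn are short, and 6 of them are printed 5′ to 3′ with every G and C in capitals, from the GENCODE M21 transcripts of build GRCm38. Gm25776, Gm23262, Gm22988 and Snora73b are small nucleolar RNAs (snoRNAs), which guide the processing and chemical modification of other RNAs. They were chosen because they were higher with long fragments at low and at high GC content. The mitochondrial gene mt-Atp8 is the shortest coding sequence of the mitochondrial genome, and Gm12338 is a processed pseudogene identical to part of the Cox7c transcript.
Gm25776: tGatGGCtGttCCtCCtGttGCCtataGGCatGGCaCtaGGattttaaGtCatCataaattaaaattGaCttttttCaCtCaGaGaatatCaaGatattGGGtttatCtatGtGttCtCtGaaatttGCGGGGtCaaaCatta
Gm23262: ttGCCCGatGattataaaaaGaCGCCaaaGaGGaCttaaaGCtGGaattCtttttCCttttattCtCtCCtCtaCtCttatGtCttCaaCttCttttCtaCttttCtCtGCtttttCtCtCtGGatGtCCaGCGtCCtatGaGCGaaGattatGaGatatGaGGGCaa
Gm22988: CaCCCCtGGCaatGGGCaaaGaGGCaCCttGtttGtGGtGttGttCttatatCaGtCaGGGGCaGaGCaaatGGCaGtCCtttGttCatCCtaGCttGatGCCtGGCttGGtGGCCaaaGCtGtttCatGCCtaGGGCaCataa
Snora73b: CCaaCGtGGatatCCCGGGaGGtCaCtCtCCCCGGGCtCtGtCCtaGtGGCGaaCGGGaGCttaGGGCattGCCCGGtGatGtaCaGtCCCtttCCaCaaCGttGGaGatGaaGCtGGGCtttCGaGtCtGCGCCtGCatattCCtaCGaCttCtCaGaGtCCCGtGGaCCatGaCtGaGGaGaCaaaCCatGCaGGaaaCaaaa
mt-Atp8: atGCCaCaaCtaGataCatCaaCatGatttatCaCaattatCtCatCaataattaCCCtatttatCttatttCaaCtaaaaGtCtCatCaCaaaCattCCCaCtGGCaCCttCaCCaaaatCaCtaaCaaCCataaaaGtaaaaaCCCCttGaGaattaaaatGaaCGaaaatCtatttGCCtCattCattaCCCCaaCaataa
Gm12338: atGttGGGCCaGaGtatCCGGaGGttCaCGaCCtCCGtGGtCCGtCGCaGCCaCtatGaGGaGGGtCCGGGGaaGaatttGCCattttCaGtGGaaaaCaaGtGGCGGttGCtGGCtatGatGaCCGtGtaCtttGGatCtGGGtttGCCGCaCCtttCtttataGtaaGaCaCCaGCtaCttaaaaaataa
Gm25776 lies at chr12:91573430-91573572 on the minus strand, inside an intron of Gtf2a1, and its 143 bases hold 35.7% G and C. Gm23262 lies at chr7:111076060-111076227 on the minus strand and overlaps an exon of Eif4g2, with 168 bases and 38.7% GC. Gm22988 lies at chr11:69669635-69669778 on the minus strand, overlaps an exon of an Eif4a1 transcript and has 144 bases with 50.7% GC. Snora73b lies at chr4:132352322-132352526 on the minus strand, within Rcc1 and Snhg3 but outside their exons, and has 205 bases with 55.6% GC. The coding sequence of mt-Atp8 lies at chrM:7766-7969 on the plus strand, overlaps mt-Atp6 and has 204 bases with 31.9% GC. Gm12338 lies at chr11:75599763-75599954 on the minus strand, overlaps no other gene on its strand and has 192 bases with 49.5% GC.

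The long library of the slow ramp stood apart from the rest. It held 1126383 estimated counts and 7241 genes with at least 10 counts, against 23376037 to 39186257 counts and 13676 to 14362 genes in the other 8 pull-down libraries. Genes annotated as rRNA took 12.7% of its counts and 0.00866% to 0.0216% in the others. CT010467.1, an rRNA-like transcript, had 143230 counts in it. Lars2, the mitochondrial leucyl-tRNA synthetase gene, took 2.05% of its counts and at most 0.00212% elsewhere. The counts for gene groups are therefore given with all 9 pull-down libraries and, second, without the slow long library, which leaves 2 long libraries.

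Between long and short fragments, 880 of 14128 tested genes differed in the fit of 9 libraries (6.23%, adjusted p under 0.05 in edgeR's quasi-likelihood test with ramp rate in the fit). Of these, 648 (4.59%) were higher with long fragments and 232 (1.64%) lower. With only the 6 long and short libraries the test called 77 of 13801 genes, 36 higher and 41 lower. With all 9 libraries thinned to the total of the shallowest it called 66 of 7855, 44 higher and 22 lower. Without the slow long library the same test called 5398 of 14432 genes (37.4%), of which 2770 (19.2%) were higher and 2628 (18.2%) lower. All 880 genes were called again in the same direction. The genes that rose included short noncoding RNAs, mitochondrial transcripts, small ribosomal and respiratory subunits and transcripts of low GC content, and those that fell included pseudogenes with an identical coding copy and transcripts of high GC content. The split into higher and lower depends on the scaling: with plain library totals in place of the trimmed mean of M-values (TMM), 452 genes were higher and 2065 lower (17.96% of calls higher, against 73.6%), and without the slow long library 1343 and 5011 (21.1% against 51.3%). Library totals moved the median of all genes from -0.01 to -0.18 on the log2 scale (from 0.00 to -0.17 without that library), and the changes below are relative to the TMM median.

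The GC content of a transcript went with its change. Over the tested genes, the median log2 change (long minus short) was 0.50 for the 789 genes under 40% GC, with 203 higher and 1 lower. It was 0.21 for the 2695 genes of 40 to 45% (222 higher, 2 lower), 0.02 for 3759 genes of 45 to 50% (115 and 33) and -0.10 for 3655 genes of 50 to 55% (70 and 90). At 55 to 60% it was -0.21 over 2608 genes (34 and 83), and at 60% and over -0.31 over 579 genes (2 and 21). Without the slow long library the 2 ends reached 0.57 (592 of 809 higher, 5 lower) and -0.42 (8 of 598 higher, 282 lower). With all libraries thinned to the total of the shallowest, the median under 40% minus that at 60% and over was 0.21, against 0.81 in the fit of 9 libraries. Coding genes alone gave 0.48 under 40% and -0.32 at 60% and over.

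The slow pair ran against the other 2 pairs. Per pair, over 9452 genes with at least 5 normalised CPM (counts scaled to the same TMM-adjusted library total), the median log2 ratio of long over short in genes under 40% GC minus that in genes of 60% and over was 0.80 in the medium pair and 1.06 in the fast pair. In the slow pair it was -1.06. Across genes, Spearman's rho between GC content and the log2 ratio was -0.66 in the medium, -0.75 in the fast and 0.49 in the slow pair, which describes genes measured in the same libraries and is no test. Fragments of medium length at the slow ramp rate lay on the side of the other pairs: medium over short gave a contrast of 0.45 at the slow, 0.41 at the medium and 0.21 at the fast ramp. The reversed contrast at the slow ramp was therefore found only where the shallow long library entered, with -1.52 for long over medium. That library also held the high rRNA share and the low depth, and their part in its contrast was not tested.

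**Figure D1:**
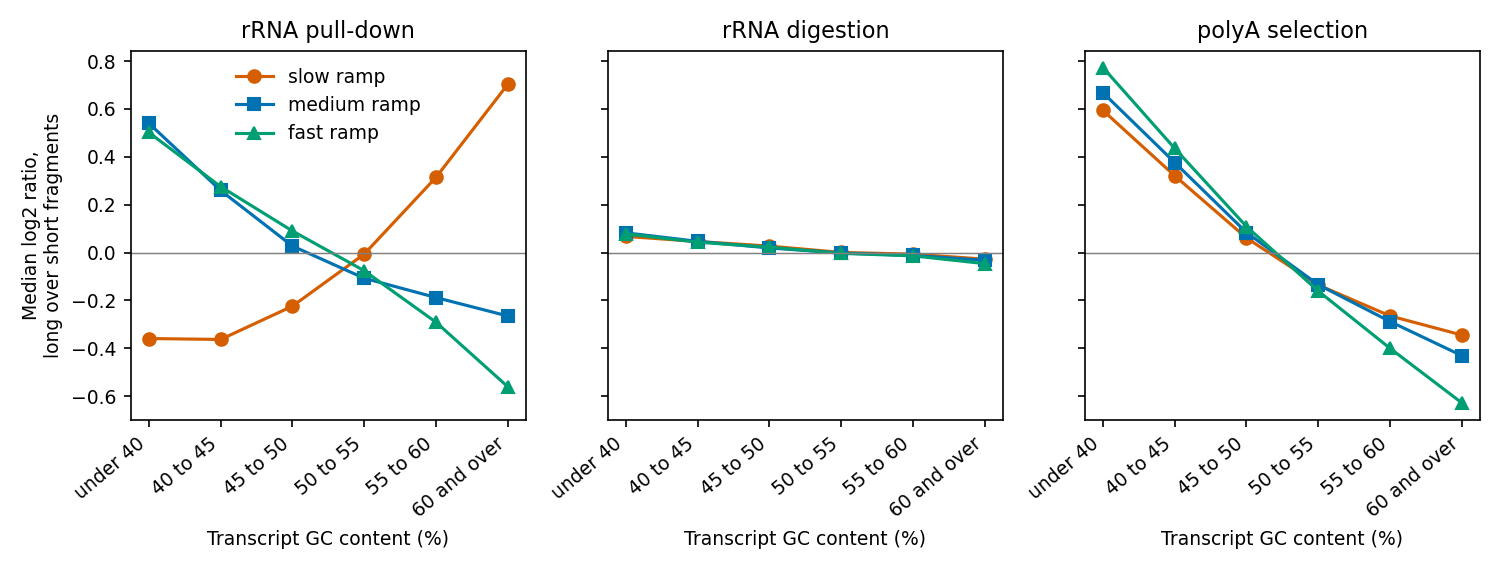
Median log2 ratio of long over short libraries (y axis) by transcript GC class in percent (x axis), for each ramp-matched pair in the pull-down, digestion and polyA libraries. Pull-down falls from 0.54 and 0.50 under 40% GC to -0.26 and -0.56 at 60% and over in the medium and fast pairs and runs the other way in the slow pair, from -0.36 to 0.70.

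Most of the tested snoRNAs rose with long fragments. Among genes annotated as snoRNA, 39 of 54 tested rose and none fell, with a median log2 change of 1.48. With the slow long library left out, 48 of 59 rose and 1 fell. The list of named snoRNAs and small Cajal body RNAs (scaRNAs), the guides for modification of spliceosomal RNAs, held 134 genes, of which 26 were tested. Of the 26, 14 rose and none fell (median 1.17), against 4.59% of all tested genes that rose. In the fit without that library, 22 of 27 rose and 1, Snora7a, fell (median 1.31), against 19.2% of all genes that rose and 18.2% that fell. Transcripts under 200 bases as a class had a median of 1.29 over 80 tested genes (37 higher, 5 lower, where 1.64% of all genes were lower), and the next class, 200 to under 500 bases, one of 0.02 over 212 genes (37 higher, 36 lower). In the fit without that library these were 1.35 over 88 genes (57 higher, 8 lower) and -0.08 over 238 genes (54 higher, 77 lower), the rises of the second class near the share of all genes. The median of all tested genes was -0.01. A snoRNA or other short RNA near 0 in the short libraries could reach the minimum count through the other libraries only, and could then hardly fall. The counts of rises and falls therefore describe the tested genes.

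Gm25776 gave 23.2, 13.1 and 11.7 normalised CPM in the slow, medium and fast long libraries and 0, 0.144 and 0.528 in the short ones. Every long library was above every short one, and the fitted log2 change was 5.71 (SE 0.48, adjusted p = 0.000771), or 5.45 (SE 0.34, adjusted p = 2.59e-06) without the slow long library. Its nearest relative, Gm25848, 90.8% identical over 97.9% of the sequence, had a log2 change of 5.68 (SE 1.14, adjusted p = 0.028), and reads shared by both may be divided between them. Gm23262 gave 13.0, 22.0 and 19.9 normalised CPM with long and 0.0408, 0.144 and 1.27 with short fragments, again without overlap. Its log2 change was 5.26 (SE 0.45, adjusted p = 0.00083). The host exon of Eif4g2, a translation factor, contains 150 of its bases, and Eif4g2 itself had a log2 change of 0.03 (SE 0.15, adjusted p = 0.94), so reads of the exon and of the snoRNA cannot be told apart by these counts alone. The sum of both was 208, 310.4 and 318 with long and 268, 252 and 254 with short fragments, a log2 ratio of group means of 0.11, with the slow long library below all short ones.

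Snora73b, a U17-type snoRNA needed for cleavage of the ribosomal RNA precursor, gave 103, 86.6 and 79.0 normalised CPM with long and 30.2, 27.8 and 32.6 with short fragments. The groups were far apart and the libraries of each group close together (89.5 ± 12.2 against 30.2 ± 2.4, SD, n = 3), with a log2 change of 1.54 (SE 0.12, adjusted p = 0.000445). Its neighbour Snora73a gave 69.5, 216 and 200.0 with long and 90.02, 83.7 and 88.4 with short fragments. Here the slow long library lay below all short libraries, and the change passed the test only without it (log2 1.30, SE 0.07, adjusted p = 1.48e-06, against 0.92, SE 0.31, adjusted p = 0.11). Gm22988 gave 928, 196 and 197 with long and 57.2, 47.7 and 48.8 with short fragments. All long libraries were higher, the slow one by far, and the log2 change was 2.73 (SE 0.39, adjusted p = 0.00953), or 2.09 without it. All its 144 bases match Eif4a1, a translation initiation factor gene, without a mismatch, so reads of both cannot be told apart within them, and the sum of the pair had a log2 ratio of group means of 1.63, or 1.03 without the slow long library. Gm24727, 93.8% identical to it, had a change of 2.77 (SE 0.47, adjusted p = 0.0166).

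Snord15b, a snoRNA of the box C/D class, gave 139, 24.4 and 22.2 normalised CPM with long and 8.20, 6.93 and 7.14 with short fragments, with no overlap (log2 2.34, SE 0.41, adjusted p = 0.0182). Among the scaRNAs, Scarna13 and Scarna6 rose by 1.08 (SE 0.11) and 1.04 (SE 0.12), and the longest, Scarna2 with 414 bases and 64.0% GC, by 0.73 (SE 0.12). These rises came at GC contents above 50%, where the GC classes had negative medians. The annotated snRNA Gm22068 was listed at 0 in all 3 short libraries and gave 3.71, 37.1 and 33.5 with long fragments. Against a floor of 3 counts per library that is at least 221-fold higher with long fragments. Gm22068 is 99.4% identical to Gm22513, and the sum of both gave 105, 216 and 221 with long and 133, 114 and 95.9 with short fragments, where the slow long library was below 2 of the 3 short ones.

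Not all small RNAs passed. The 9 structured noncoding RNAs tested, such as 7SK, had a median of 0.53 with 0 calls, and 2 rose without the slow long library (median 0.22), near the 19.2% of all genes that rose there. Rn7sk, which holds the elongation factor P-TEFb inactive, gave 0.76 (SE 0.22, adjusted p = 0.081), and 0.40 (SE 0.09, adjusted p = 0.00505) without the slow long library. Of the U RNAs tested, Rnu3a rose by 1.36 (SE 0.29, adjusted p = 0.0343), and Rnu3b2, another U3 gene, gave -0.29 (SE 0.50, adjusted p = 0.752). In both fits 1 of the 3 U RNAs tested rose and none fell. Both are U3 RNAs of ribosomal RNA processing and both were listed at 0 in the slow long library. The 22 mitochondrial tRNAs were listed at 0 in all long and short pull-down libraries.

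Host genes, which carry snoRNAs in their introns, rose in part. Of 18 tested, 6 rose and none fell, with a median of 0.30, where 4.59% of all tested genes rose. Leaving out the slow long library, 9 rose and 1 fell (median 0.38), against 19.2% of all genes that rose and 18.2% that fell. With library totals 3 rose and 1 fell, and 5 rose and 4 fell without that library. Gas5 gave 69.5, 66.0 and 68.1 normalised CPM with long and 40.8, 37.2 and 37.8 with short fragments, with all long libraries higher (log2 0.82, SE 0.07, adjusted p = 0.00104). Snhg3, whose locus contains both Snora73 genes, rose by 1.21. Eef2, the host with the highest level, gave -0.14 (SE 0.21, adjusted p = 0.707). Malat1, a nuclear long noncoding RNA, rose by 0.50 (SE 0.10, adjusted p = 0.0246) and was the only one of 8 nuclear noncoding RNAs to pass with 9 libraries, while 4 rose without the slow long library. Their median was 0.10, and -0.07 with library totals.

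**Figure D2:**
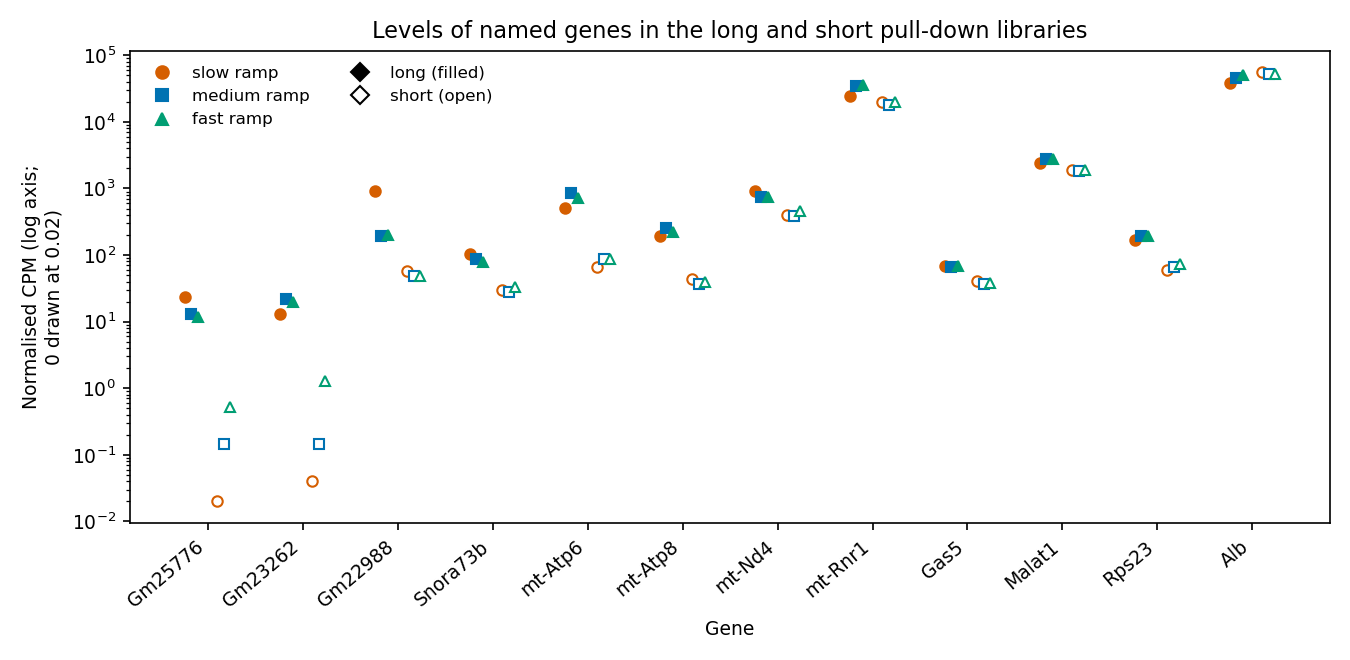
Normalised CPM (y axis, log scale, 0 drawn at 0.02) of 12 named RNAs (x axis) in each long (filled) and short (open) pull-down library, with 1 symbol per ramp rate. Gm25776 lies between 11.7 and 23.2 in the long libraries and at most at 0.528 in the short ones, while Alb lies between 38068 and 55804 in all 6.

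Many transcripts of the mitochondrial genome rose with long fragments. Of the 13 mitochondrial mRNAs, which encode core subunits of the respiratory chain and ATP synthase, 7 rose and none fell (median 0.96), against 4.59% of all tested genes that rose. With the slow long library left out, all 13 rose (median 1.03), against 19.2% of all tested genes. The size of the change differed between members: mt-Atp6 rose by 3.10 (SE 0.13), mt-Atp8 by 2.50 (SE 0.16), mt-Co3 by 2.32 (SE 0.19) and mt-Nd6 by 2.29 (SE 0.20). At the other end, mt-Co1 gave 0.16 (SE 0.19, adjusted p = 0.633) and mt-Cytb 0.28 (SE 0.11, adjusted p = 0.154). Their GC contents lay close together, between 31.9% in mt-Atp8 and 41.1% in mt-Nd4l.

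For mt-Atp6, a subunit of ATP synthase, the long libraries gave 513, 847 and 722 normalised CPM and the short ones 65.5, 87.6 and 88.7. All long libraries were several times above all short ones (adjusted p = 4.23e-05). A copy of 99.6% of its length on chromosome 1, the pseudogene Gm10925, matched it without a mismatch and held 836, 1129 and 1232 normalised CPM with long and 840.1, 789 and 955 with short fragments. The sum of both was 1349, 1976 and 1954 against 906, 876 and 1043, a log2 ratio of the group means of 0.90. The gene for mt-Atp8, whose sequence is printed above, gave 195, 253 and 223 against 43.0, 36.3 and 38.8, without overlap (adjusted p = 0.000186), and shares bases with mt-Atp6.

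For mt-Co3, a subunit of cytochrome oxidase, the values were 2589, 6501 and 5813 with long and 648, 908 and 1320.2 with short fragments (adjusted p = 0.000679). The long libraries were again all higher, the slow one least so. For mt-Nd4, a complex I subunit, the values were 922, 753 and 736 against 393, 384 and 455, and the change was 0.96 (SE 0.12, adjusted p = 0.0053). The genes mt-Co2 and mt-Nd3 were listed at 0 in the slow long library only. In the other 2 long libraries mt-Co2 gave 1285 and 1965, above the 541, 485 and 659 of the short libraries, and mt-Nd3 gave 684 and 642, above 137, 134 and 145. In the fit without that library their changes were 1.57 (SE 0.12, adjusted p = 1.28e-05) and 2.22 (SE 0.07, adjusted p = 2.1e-08).

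Of the mitochondrial rRNAs, mt-Rnr1 (12S) gave 24299, 35103 and 36464 normalised CPM with long and 19856, 18082 and 19972 with short fragments, with no overlap (log2 0.72, SE 0.14, adjusted p = 0.0264). For mt-Rnr2 (16S) the slow long library, at 77593, lay below the short ones, at 123534, 114782 and 127360.3, and the other long libraries, at 201929 and 220700.0, above them. Its change of 0.37 (SE 0.28) did not pass (adjusted p = 0.433) and was 0.80 (SE 0.06, adjusted p = 1.41e-05) without that library. Nuclear copies on chromosome 1 moved both ways: of 4 tested, Gm28661 rose by 0.43 (SE 0.10, adjusted p = 0.0495) and Gm29216 fell by 2.89 (SE 0.39, adjusted p = 0.00709). Gm29216 matches mt-Co1 at 99.8% identity, with 1 mismatch in 483 aligned bases. It gave 324, 69.4 and 136 with long and 1107, 1195 and 1018 with short fragments, where all short libraries were higher. Without the slow long library 2 of the 4 rose and 2 fell. With library totals Gm28661 no longer rose and a second copy was lower, so 0 of the 4 were higher and 2 lower (1 and 2 without that library).

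Cytosolic ribosomal proteins, the protein components of the ribosome, rose with long fragments in part. Of 83 tested genes, 25 rose and none fell (median 0.31), where 4.59% of all genes rose. With the slow long library left out, 55 rose and 3 fell (median 0.34), where 19.2% of all genes rose and 18.2% fell. With library totals 21 rose and none fell (median 0.14), and without that library 44 rose and 13 fell. Rps23 gave 167, 191 and 194 normalised CPM with long and 60.2, 65.6 and 72.2 with short fragments, with all long libraries higher (log2 1.48, SE 0.09, adjusted p = 9.8e-05). Rps2, the member with the highest level, gave 467, 316 and 308 against 371, 392 and 385. Only its slow long library was above the short ones, and its change of -0.10 (SE 0.15) did not pass (adjusted p = 0.717). Without that library Rps2 fell by 0.32 (SE 0.04, adjusted p = 0.000402). The 6 largest rises that passed were those of Rps23, Rpl27, Rpl22l1, Rpl27a, Rpl28 and Rps28, by 1.09 to 1.48.

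Among nuclear-encoded subunits of oxidative phosphorylation, 17 of 79 rose and none fell (median 0.22), against 4.59% of all genes that rose, and 39 rose and 9 fell without the slow long library (median 0.18), against 19.2% of all genes that rose and 18.2% that fell. With library totals 12 rose and 4 fell (median 0.06), and without that library 29 rose and 22 fell (median 0.00), where 1343 of all 14432 genes were higher and 5011 lower. Ndufb4, a complex I subunit, gave 46.3, 45.5 and 43.4 with long and 14.0, 15.4 and 16.99 with short fragments. The libraries of each group were close together and the groups apart (log2 1.503, SE 0.08, adjusted p = 9.8e-05). Cox7c, a cytochrome oxidase subunit, rose by 1.13 (SE 0.09, adjusted p = 0.000656). Atp5b, the member with the highest level, gave -0.19 (SE 0.08, adjusted p = 0.191).

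Transcript length went with the changes of coding genes as well. Coding genes of 200 to under 500 bases had a median of 0.41 over 66 tested genes, with 22 higher and 6 lower, where 4.59% of all tested genes were higher and 1.64% lower. Those of 500 to under 1000 bases had a median of 0.14 over 588 genes (82 higher, 6 lower), while the coding classes from 1000 bases upward had medians between -0.06 and 0.05. Without the slow long library the first class had a median of 0.39 over 69 genes (31 higher, 9 lower), the second 0.14 over 597 genes (195 higher, 37 lower), and the longer ones lay between -0.04 and 0.08, where 19.2% of all genes were higher and 18.2% lower. No coding gene under 200 bases reached the minimum count. The medians were thus positive in the short coding classes and near 0 in the longer ones. Over all genes of 500 to under 1000 bases, the median was 0.52 in the 139 under 45% GC and 0.08 in the 715 at 45% and over, and 0.59 and 0.05 without the slow long library.

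Processed pseudogenes, reverse-transcribed copies of mRNAs inserted elsewhere in the genome, fell with long fragments in part. Of 208 tested, 51 fell (24.5%, against 1.64% of all tested genes) and 2 rose, with a median of -0.77. Leaving out the slow long library, 116 of 256 fell (45.3%, against 18.2%) and 10 rose. By identity to the best coding match, 21 of 54 pseudogenes identical over the aligned part fell (38.9%), 14 of 53 with 98% to under 100% identity (26.4%), 16 of 87 below 98% (18.4%) and 0 of 14 with no match over 80% of their length. In the fit without that library the shares were 50 of 63 (79.4%), 43 of 76 (56.6%), 22 of 101 (21.8%) and 1 of 16 (6.25%). Of the 54 identical ones, 30 were listed at 0 in all 3 long libraries, against 8, 2 and 0 in the other classes. Such genes reached the minimum count only through the other libraries and could only fall, so these counts describe the tested pseudogenes and support no relation with identity. Reads of an identical pair cannot be told apart where they lie within the shared sequence. The coding genes matched to the 21 that fell numbered 20, of which 12 rose and none fell (median 0.66). Leaving out the slow long library, 49 were matched to the 50 that fell, of which 37 rose and 4 fell (median 0.45). These genes were picked by the fall of their copy, and reads divided within a pair that leave one add to the other, so their counts are a description and are set against no background.

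The 9 processed pseudogenes with the largest falls by the naming rule were all listed at 0 in all 3 long libraries, and each matched its coding gene without a mismatch over its whole length. Rps23-ps1 gave 70.3, 61.3 and 46.8 normalised CPM in the slow, medium and fast short libraries, at least 59.7-fold more than the floor of 3 counts per long library (adjusted p = 6.73e-05). Rps23 itself was higher by 1.48 with long fragments, and the sum of the pair was 167, 191 and 194 with long and 131, 127 and 119 with short fragments, a log2 ratio of group means of 0.55. Since the pseudogene was named for being at 0 with long fragments, its sum with Rps23 can only have a smaller long over short ratio than Rps23 alone, here and in the pairs that follow. Rpl28-ps1 gave 42.5, 40.4 and 35.4 with short fragments (at least 39.6-fold lower with long, adjusted p = 4.23e-05), and its pair with Rpl28 summed to 132, 100.2 and 84.2 with long and 86.3, 89.5 and 82.9 with short fragments. In that sum the fast long library fell between the short ones, and the log2 ratio was 0.29, or 0.10 without the slow long library, against a change of 1.099 for Rpl28 alone.

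In the other pairs the log2 ratio of the summed group means is given beside the fitted change of the coding gene, which are different quantities. Rps16 with Rps16-ps2 gave a log2 ratio of 0.09 against 0.74 for Rps16 alone, Rpl10a with Rpl10a-ps1 gave -0.07 against 0.29, Rpl27 with Rpl27-ps3 gave 0.35 against 1.32, and Rpl31 with Rpl31-ps8 gave 0.43 against 1.06. Cox7c with Gm12338, whose sequence is printed above, gave 0.75 against 1.13. Gm12338 itself gave 24.0, 19.6 and 17.3 in the short libraries and was at least 20.4-fold lower with long fragments (adjusted p = 9.8e-05). Pgk1, the glycolytic phosphoglycerate kinase, gave 0.15 with Pgk1-rs7 and 0.14 with Gm5537, 2 full-length copies, against 0.43 alone. Summed over Pgk1 and both copies, the log2 ratio was -0.09. Without the slow long library that sum gave 0.11, the pairs 0.35 and 0.30, and Pgk1 alone 0.61. For Pgk1-rs7 the short libraries gave 43.8, 46.6 and 12.7, and the calls of Pgk1-rs7, Gm5537, Rpl31-ps8 and Rpl10a-ps1 rested on wider errors (adjusted p from 0.0143 to 0.0482).

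A pair of pseudogenes had counts in the slow long library and none in the other long libraries. Gm7536, identical to Rpl27a, gave 77.8 in the slow long library and 0 in the other 2, against 90.6, 87.2 and 73.5 with short fragments. It passed only without that library (at least 810.3-fold lower, adjusted p = 2.8e-09), and its pair sum had a log2 ratio of -0.03 there. Gm10123, identical to Ppia, gave 73.2, 0 and 0 against 64.6, 61.0 and 78.2, and likewise passed only without the slow long library (at least 657-fold lower, adjusted p = 2.87e-08, pair sum 0.09).

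**Figure D3:**
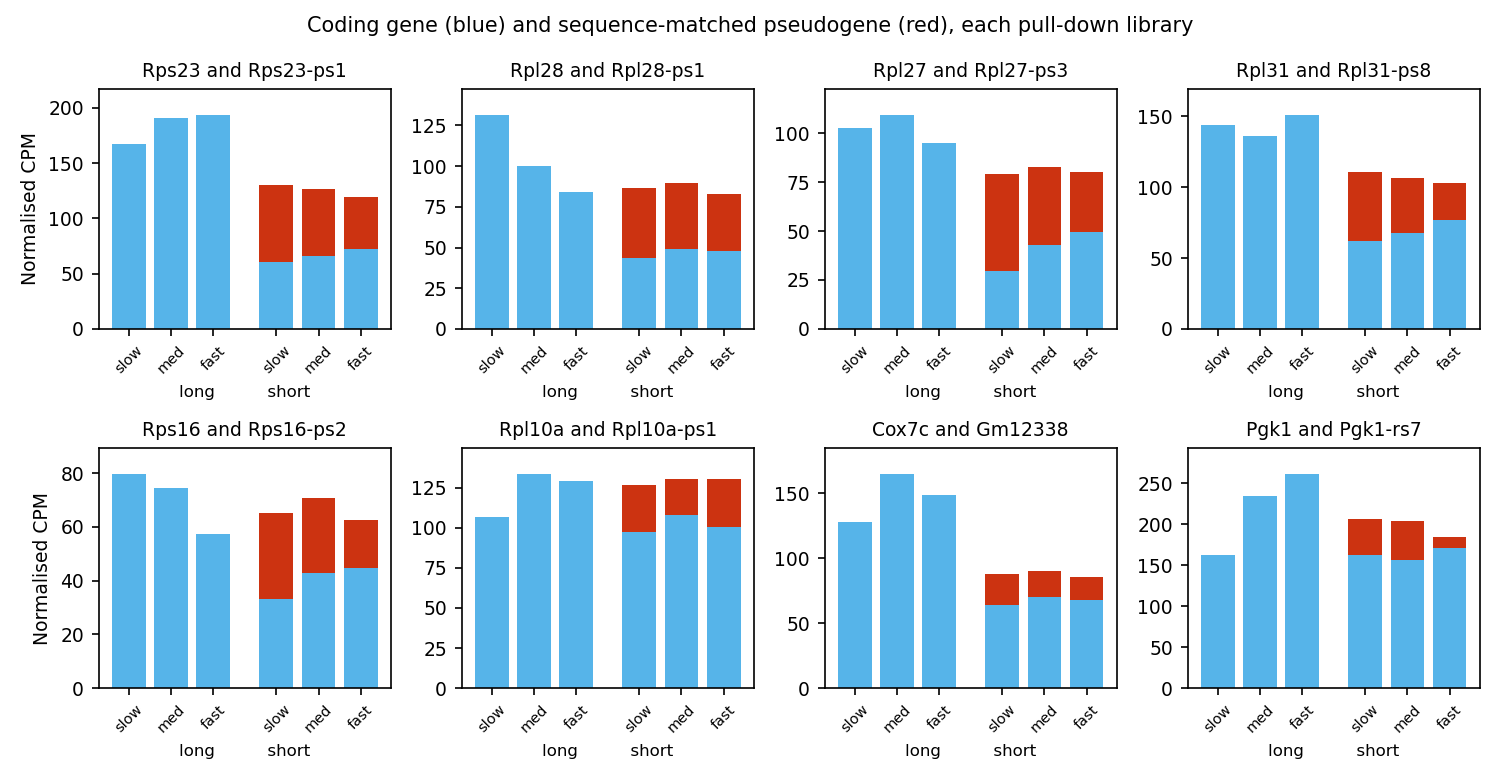
Normalised CPM (y axis, bars from 0) of 8 coding genes (blue) and an identical pseudogene (red) stacked on top, in each long and short pull-down library by ramp rate (x axis). The pseudogene is at 0 in all long libraries of all 8 pairs, so the stacked total there is the blue part alone.

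Near-identical coding genes divided their counts differently by length as well. Chtf8, which acts in sister chromatid cohesion, is annotated under 2 identifiers that share 2639 bases without a mismatch. ENSMUSG00000117748 gave 0, 26.2 and 28.2 with long and 0.0816, 0.0721 and 0.0703 with short fragments, and ENSMUSG00000046691 gave 33.4, 9.76 and 8.18 against 40.4, 39.2 and 41.1. Both differed (log2 8.20, SE 0.55, adjusted p = 0.000208, and -1.97, SE 0.27, adjusted p = 0.00709), and their sum had a log2 ratio of -0.19. Rsc1a1 lies within the sequence of Ddi2, an aspartic protease gene, and rose by 2.62 (SE 0.20, adjusted p = 0.000441) while Ddi2 gave -0.24 (SE 0.08, adjusted p = 0.118) and the pair -0.08. Hist2h2aa2, a replication-dependent histone gene, was listed at 0 in all long libraries and at 10.6, 19.8 and 18.3 in the short ones, at least 16.3-fold lower with long fragments (adjusted p = 0.00123). Its identical partner Hist2h2aa1 gave 131, 20.5 and 6.93 against 7.95, 11.6 and 7.42, and the pair sum had a log2 ratio of 1.06 with the slow long library and -1.06 without it. Of 46 histone genes tested, 4 fell and none rose (median -0.16), where 1.64% of all genes fell. With the slow long library left out, 8 of 49 fell and 1 rose (median -0.33), where 18.2% of all genes fell.

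The major urinary proteins, pheromone carriers made in liver and encoded by a cluster on chromosome 4, rose in 7 of 18 tested genes and fell in none (median 0.66), where 4.59% of all genes rose. With the slow long library left out, 15 rose and 1, Mup11, fell (median 0.85), where 19.2% of all genes rose. Mup18 gave 357, 369.7 and 421 with long and 14.3, 19.6 and 30.6 with short fragments, without overlap (log2 4.22, SE 0.24, adjusted p = 9.8e-05). Mup16 gave 4.63, 16.3 and 17.4 against 2.12, 1.95 and 1.69, with the slow long library least above the short ones (log2 3.03, SE 0.21, adjusted p = 0.000229). Mup3, the member with the highest level, gave 1774, 3849 and 4133 against 3160.1, 2991 and 3058. Here the slow long library was below the short ones and the other 2 above them, and the change of 0.04 (SE 0.25) did not pass (adjusted p = 0.947). Mup16 is 98.8% identical to Mup22 over 92.6% of its length, and 16 other genes matched Mup18 at 90% identity or more, so the division of reads inside the family is uncertain. The sum over Mup18 and these matches was 4442, 7043 and 7523 with long and 4508, 4217 and 4424 with short fragments, a log2 ratio of group means of 0.53, with the slow long library among the short ones. Sec61g, a subunit of the translocation channel of the endoplasmic reticulum, had no such match and gave 7.41, 27.8 and 55.1 with long and 3.96, 3.79 and 4.15 with short fragments. All long libraries of Sec61g were higher, over a wide range (log2 3.15, SE 0.31, adjusted p = 0.00154).

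Lists of hepatocyte function held few calls with 9 libraries, where 6.23% of all tested genes were called. Among 31 plasma proteins 1 fell, Serpina1c (fell by 0.45 on the log2 scale, SE 0.11, adjusted p = 0.0495), and none rose (median -0.22). Alb, albumin, gave 38068, 46111 and 50434 with long and 55804, 52959 and 52542 with short fragments. All long libraries were lower, and the change of -0.27 (SE 0.10) did not pass (adjusted p = 0.148). Of 31 complement and coagulation genes 1 rose, of 63 cytochrome P450s 1 rose (Cyp2r1) and 1 fell (Cyp3a44), of 14 apolipoproteins 1 rose (Apoc1, 0.42, SE 0.09, adjusted p = 0.0328). No gene passed among 9 of the urea cycle, 23 of cholesterol synthesis and uptake, 24 of fatty acid oxidation and 20 hepatocyte transcription factors. These counts depend on the scaling: with library totals, where 2065 of all genes were lower, 17 plasma proteins, 14 P450s, 10 fatty acid oxidation genes, 4 cholesterol genes, 4 transcription factors, 3 complement and coagulation genes and 1 urea cycle gene were lower. Hamp, which encodes the iron hormone hepcidin, rose by 0.44 (SE 0.09, adjusted p = 0.0327), the only one of 9 metal-binding and small secreted peptides, and Hbb-bt rose by 0.43 (SE 0.07, adjusted p = 0.0141), the only one of 4 globins (3 rose without the slow long library). With library totals no apolipoprotein, complement and coagulation gene or metal-binding peptide was higher, so Apoc1 and Hamp were not called there.

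Without the slow long library more of these genes passed, in both directions, as did 19.2% of all tested genes upward and 18.2% downward. Plasma proteins had 18 lower and 1 higher (median -0.13), hepatocyte transcription factors 9 lower and 1 higher (median -0.22), fatty acid oxidation 9 lower and 3 higher (median -0.10) and cytochrome P450s 19 lower and 13 higher (median -0.04). Cholesterol genes had 8 lower and 4 higher, complement and coagulation 8 and 5, the urea cycle 3 and 1, apolipoproteins 3 and 4, and metal-binding peptides 1 and 4. Hnf4a, a transcription factor of hepatocyte identity, gave 548, 394 and 400.2 against 486, 484 and 471, and fell by 0.28 (SE 0.04, adjusted p = 0.000756) there. Only 2 long libraries of Hnf4a were below the short ones, and the slow one was above them. Apoe, a lipid carrier with 59.5% GC, gave 17816, 8574 and 7010.2 against 8546, 9299 and 8779.8 and turned direction: 0.25 (SE 0.27, adjusted p = 0.588) with and -0.23 (SE 0.06, adjusted p = 0.00914) without the slow long library. Cyp3a11, a drug-metabolising P450, turned the other way, from -0.17 (SE 0.22, adjusted p = 0.656) to 0.16 (SE 0.05, adjusted p = 0.0199). With library totals the medians of the apolipoprotein, urea cycle, cholesterol and metal-binding lists were negative without that library, where with TMM they were 0.01 to 0.07. The counts moved too: 28 plasma proteins were then lower and 0 higher, 28 P450s lower and 3 higher, 20 complement and coagulation genes lower and 1 higher, 19 fatty acid oxidation genes lower and 0 higher, and 16 transcription factors lower and 1 higher. Cholesterol genes had 13 lower and 1 higher, apolipoproteins 8 and 3, the urea cycle 7 and 0, and metal-binding peptides 2 and 3.

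Markers of liver cell types differed between lengths although all libraries came from the same liver, so their cell content was not varied by design, and in bulk RNA fewer cells of a type and less RNA per cell cannot be told apart. Of 8 Kupffer cell markers 3 rose (Cd5l 0.47, Adgre1 0.43, C1qb 0.35) and none fell, with a median of 0.38, where 4.59% of all genes rose. Leaving out the slow long library, 6 rose, where 19.2% of all genes did, and with library totals 1 and 4 rose in these 2 fits. Their summed level was 300.2 to 329 normalised CPM in the long and 250.4 to 254 in the short libraries. Cd5l, a macrophage-secreted protein, gave 89.0, 90.5 and 95.7 against 65.2, 65.0 and 69.0, without overlap (SE 0.08, adjusted p = 0.0157). Of 6 stellate cell markers 1 rose, Lrat, the retinol-storing acyltransferase (0.66, SE 0.08, adjusted p = 0.00433), with sums of 310.4 to 367 in the long and 293 to 301 in the short libraries. In the fit without that library 4 of these 6 rose (1 and 2 with library totals). None of 6 sinusoidal endothelial markers passed with 9 libraries and 5 rose without the slow long library (0 and 2 with library totals), with sums of 514 to 564 in the long and 467 to 481 in the short libraries. Of 8 hepatocyte markers 1 fell, and 4 without the slow long library (4 and 7 with library totals), where 1.64% and 18.2% of all genes fell (2065 and 5011 genes with library totals), and their sums, 61116 to 75779.6 in the long and 78709 to 82905 in the short libraries, did not overlap. Ptprc was the only one of 5 lymphocyte markers to rise (0.53, SE 0.11, adjusted p = 0.0314), with sums of 22.2 to 29.6 against 20.2 to 21.9. With library totals no lymphocyte marker was called in the fit of 9 libraries. Without the slow long library 1 rose, with TMM and with library totals. None of 5 cholangiocyte markers passed, with sums of 10.2 to 26.4 against 20.9996 to 21.8. The part of the marker differences in other results was not tested. Hepatocyte markers were by far the highest in every library, as the tissue label has it, and the cardiomyocyte markers summed to at most 0.343.

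**Figure D4:**
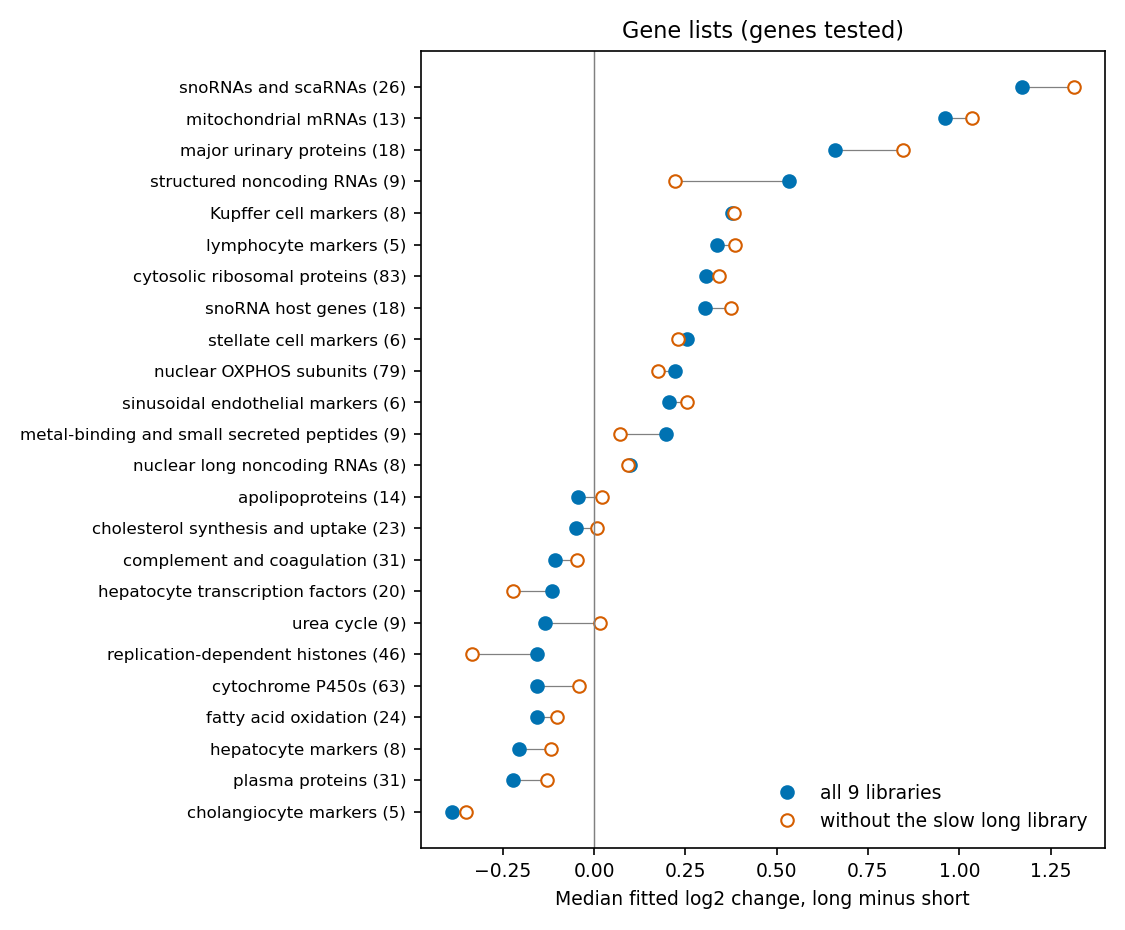
Median fitted log2 change, long minus short (x axis), of 24 gene lists (y axis, number of tested genes with 9 libraries in brackets), with all 9 pull-down libraries (filled) and without the slow long library (open). The median of snoRNAs and scaRNAs is 1.17 and 1.31 and that of mitochondrial mRNAs 0.96 and 1.03, while plasma proteins are at -0.22 and -0.13.

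Seen as shares of all counts, 4 of 10 library measures lay on the same side in all 3 ramp-matched pairs. The snoRNA and scaRNA share was 0.0550%, 0.0644% and 0.0588% in the slow, medium and fast long libraries and 0.0341%, 0.0318% and 0.0311% in the short ones. The long libraries were all higher, by 0.0271 ± 0.00586 percentage points (SD of 3 pairs). The ribosomal protein share was higher by 0.0962 ± 0.0223 points in 3 of 3 pairs (1.17% against 1.07%). Transcripts over 4000 bases took 15.7%, 17.3% and 16.8% with long and 19.4%, 19.3% and 19.3% with short fragments, lower by 2.72 points (-2.72 ± 0.812) in 3 of 3 pairs. The count-weighted mean log2 transcript length was lower in 3 of 3 pairs, at 10.8 against 10.9. With each gene's median transcript length in place of its longest, it was -0.0202 (long minus short) with 2 of 3 pairs higher, and transcripts over 4000 bases differed by -0.668 points. Mitochondrial rRNAs took 9.76%, 22.7% and 23.5% with long and 15.04%, 14.2% and 15.4% with short fragments, and mitochondrial mRNAs 1.54%, 2.72% and 2.65% against 1.57%, 1.54% and 1.82%. For both, only the slow long library was not above its partner. The exact two-sided sign-flip test over 3 pairs cannot go below 0.25, and no measure passed (adjusted p of at least 0.625 over the 10 measures). Leaving the rRNA genes, mitochondrial ones included, and Lars2 out of the counts, 7 of the 8 measures left lay on the same side in all 3 pairs, among them mitochondrial mRNAs, higher by 1.08 ± 0.793 points. The ribosomal protein share was then higher by 0.269 ± 0.0257 points (1.53% against 1.26%). Transcripts over 4000 bases then differed by -0.993 ± 0.887 points (21.7% with long against 22.7% with short fragments).

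**Figure D5:**
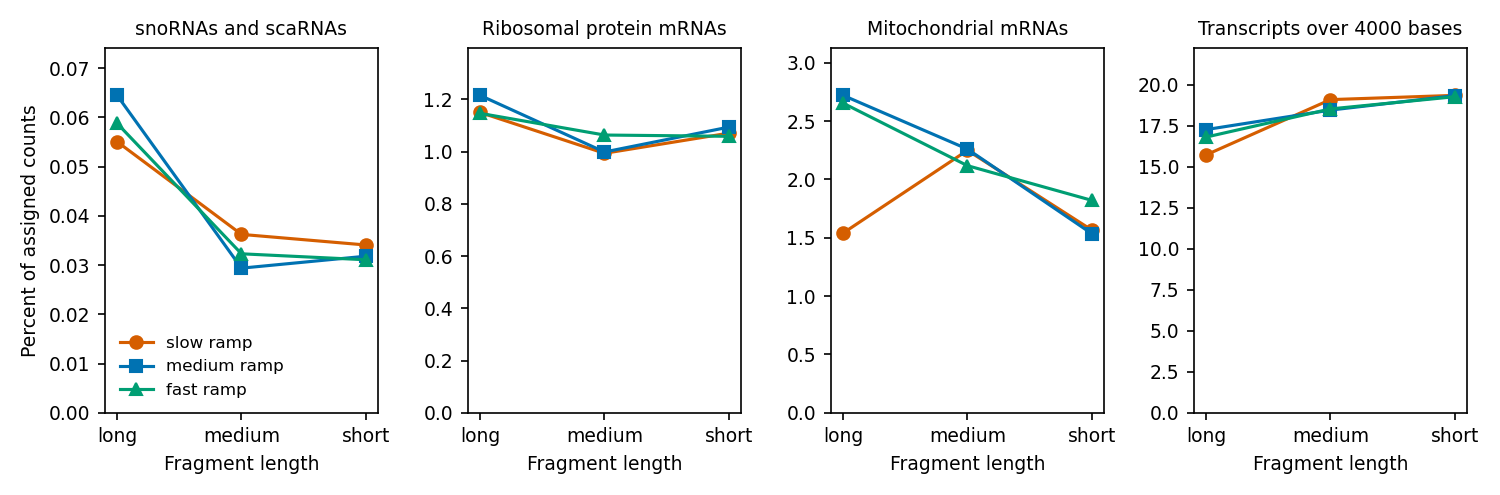
Percent of assigned counts (y axes, from 0) in 4 RNA classes by fragment length (x axis), with 1 line per ramp rate. The long libraries hold 0.0550 to 0.0644% in snoRNAs and scaRNAs against 0.0311 to 0.0341% in the short ones, and medium libraries lie near the short ones in that class.

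The digestion libraries of the same batch address whether length acted alike in another depletion method. Over 15442 genes tested in 27 libraries, the effect of length differed between pull-down and digestion for 2228 (14.4%), with 1249 more positive in pull-down and 979 less so, and without the slow long library for 4083 (1650 and 2433). The contrast between low and high GC, over 8987 genes common to both methods, was -1.07, 0.81 and 1.07 in the slow, medium and fast pull-down pairs and 0.0982, 0.114 and 0.123 in the digestion pairs. The 3 digestion pairs lay close together, the difference of means was 0.16 and the exact permutation p was 1, where 0.1 is the smallest possible. Without the slow pairs the difference was 0.82 (exact p = 0.333, the smallest possible). The 12 common transcripts under 200 bases had medians of 0.30, 0.44 and 0.86 in pull-down and -1.25, -0.86 and -0.55 in digestion. All pull-down pairs were above 0 and all digestion pairs below, a difference of 1.42 (exact p = 0.1, the smallest possible). For transcripts of 500 to under 1000 bases both methods gave a mean of 0.18.

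Long minus short, the share of snoRNAs and scaRNAs differed between pull-down and digestion by 0.0276 points, the share of transcripts over 4000 bases by -1.86 points and the mean log2 length by -0.0932. Each had an exact permutation p of 0.1, the smallest possible, and an adjusted p of 0.333 over 10 measures. Leaving the rRNA genes and Lars2 out of the counts, the difference for transcripts over 4000 bases was -0.145 points (exact p = 0.9). With each gene's median transcript length it was -0.401 points, and that for the mean log2 length -0.00829 (exact p = 0.9). Rps23-ps1, at 0 in all long pull-down libraries, was not at 0 in digestion: on the scale of 27 libraries normalised together it gave 32.7, 32.3 and 34.5 with long and 40.7, 41.7 and 40.8 with short fragments. Gm12338 was listed at 0 in all long libraries of digestion too, against 15.1, 14.9 and 16.6 in the short ones. Snora73b gave 9.74, 8.74 and 9.83 with long and 10.6, 10.4 and 8.60 with short fragments in digestion, where the groups overlapped.

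Against polyA libraries, which were made in another batch so that method and batch cannot be told apart, the length effect differed for 463 genes (3.00%), 250 more positive and 213 less so in pull-down. Leaving out the slow long library, it differed for 1330 (316 and 1014). The split depended on the processing: over all 27 libraries it was 192 and 764 with size factors in place of TMM, and 334 and 1457 with DESeq2. The GC contrast over 8928 common genes was 0.94, 1.09 and 1.40 in the polyA pairs and -1.07, 0.78 and 1.05 in pull-down, a difference of -0.89 (exact permutation p = 0.2) and, without the slow pairs, -0.33 (exact p = 0.333, the smallest possible). The mitochondrial gene mt-Co3 differed by 2.63 (SE 0.35, adjusted p = 0.000119): in polyA it gave 844, 753 and 607 with long and 1013, 714 and 863 with short fragments on the scale of 27 libraries, where the groups overlapped. Gm12338 was at 0 in all long polyA libraries as well.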

How the data were processed

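The series measured RNA of 1 mouse liver in libraries that differ in preparation. The deposited table holds estimated counts per gene and library, which the authors made before deposit. Per the submitters' processing notes the tools include Salmon 1.9.0, UMI-tools 1.1.1 and R 4.4.0 with build GRCm38, and their roles, settings and annotation are not given in the sources used here. Whether duplicates were removed by molecular identifier is not stated there either. The table has 51368 genes, and 50896 identifiers matched GENCODE M21, from which names, lengths, GC content and sequences were taken. The 472 unmatched ones held at most 0.0338% of a pull-down library's counts, and 76 annotated genes had no length. No count column was left unused.

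These expected counts, deposited by the authors, were first rounded. Long was tested against short with edgeR 4.0.16 (limma 3.58.1, R 4.3.3; glmQLFit and glmQLFTest, TMM, filterByExpr with a minimum count of 10) on 9 pull-down libraries with length and PCR ramp rate as factors, with Benjamini-Hochberg adjustment over all tested genes and a threshold of 0.05. Differences between methods were interaction terms over 27 libraries. Per-pair ratios used a pseudocount of 0.5 normalised CPM. Library shares were compared with exact sign-flip and permutation tests. Near-identical genes were found with blastn 2.17.0 (at least 90% identity over 80% of the sequence). Depth was 1126383 counts in the slow long library and 23376037 to 39186257 in the others, and the floor for a gene at 0 was 3 counts per library. The scripts were tested on simulated data. Python 3.11.15 with pandas 2.3.3, numpy 2.4.6 and matplotlib 3.10.9 did the rest.

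Named genes were, with a mean of at least 5 normalised CPM and the same direction in all pairs, the 10 largest rises and falls with 9 libraries and the 5 largest of each without the slow long library. The list members with the highest level and the smallest p, and the 3 highest and 3 lowest calls of each interaction, were added. Of the RNAs so chosen, 1 is not reported here. A few further members of the same lists and sequence matches of named genes were chosen after their values were seen. The comparison and the 31 gene lists were chosen with earlier results of these data known. Ramp rate pairs the libraries as a labelled factor. Deviations of long and short libraries of the same ramp from the mean of their length group correlated at -0.11, -0.08 and -0.01. The slow long library enters the mean of all long deviations, so these values cannot show whether matched libraries deviated together. Alternatives covered the scaling, the filter, DESeq2 1.42.0, the libraries and the block, and 5 were added after seeing the data.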

Additional observations from a re-analysis of the deposited data

Results flagged for a closer look

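The effect of fragment length differed between methods for many genes, by edgeR's test of the difference itself. It differed between pull-down and digestion for 2228 genes and between pull-down and polyA for 463 genes, out of 15442 tested.

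Among the genes named by size against digestion, Rps23-ps1 (adjusted p = 3.55e-12), Rpl31-ps8 (adjusted p = 0.000116) and Rpl28-ps1 (adjusted p = 4.89e-14) were at 0 in the long pull-down libraries and above 0 in the long digestion libraries. For Rpl28-ps1 those were 22.3, 22.8 and 20.4, and for Rpl31-ps8 26.1, 20.4 and 24.3 normalised CPM on the scale of 27 libraries. Gm22068 (adjusted p = 0.0181), Chtf8 under ENSMUSG00000117748 (adjusted p = 0.000165) and Lars2 (adjusted p = 0.00852) stood on the other side. Lars2 rested on the slow long library, since without it the difference was 0.11 (adjusted p = 0.928).

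Against polyA, Gm5537 (adjusted p = 0.00196), Rps23-ps1 (adjusted p = 1.83e-12) and Rpl28-ps1 (adjusted p = 4.03e-13) were the lowest, and mt-Co3 (adjusted p = 0.000119), Lars2 (adjusted p = 0.0336) and CT010467.1 (adjusted p = 0.0359) the highest. Without the slow long library Lars2 had -0.35 (adjusted p = 0.805) and CT010467.1 -0.31 (adjusted p = 0.84), while mt-Co3 kept 2.88 (adjusted p = 1.26e-06). The polyA libraries were made in another batch, which cannot be told apart from the method.

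The transcripts under 200 bases were higher with long fragments in all 3 pull-down pairs and lower in all 3 digestion pairs, with a difference of 1.42 in the median log2 ratio over 12 transcripts.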

How the results depend on the processing

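The count of 880 genes depended on which libraries entered. Leaving out each long or short library in turn gave 77 to 5398 genes, the highest without the slow long library, and leaving out the slow-ramp pair gave 4603. It was 2517 with library totals, 5076 with voom weights, 77 with only the 6 long and short libraries, 5146 in the fit of 27 libraries, 66 with all libraries thinned to the shallowest and 96 for a tested change of at least 1.5-fold. Without the replicate block (ramp rate as pairing) it was 2064. The others gave 912 (size factors), 1000 (no filter), 954 (strict filter), 1289 (DESeq2) and 899 (without rRNA genes). Chosen after seeing the data, the fits without the slow long library gave 6354 with library totals, 5409 with size factors, 2991 with DESeq2 and 258 at 1.5-fold, and the replicate block on 4 libraries 5069. The difference from digestion was 4083 genes without the slow long library, and that from polyA 1330 without it, 811 without the slow pairs, 956 with size factors and 1791 with DESeq2. Without the pairing the 2 interactions gave 1693 and 437 genes. Apart from the effect of fewer libraries, the causes were not tested.

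Of the library measures, the share of genes typed rRNA ranged from -0.000252 to 6.36 with a pair left out and from -0.0832 to 6.41 against digestion. The weighted GC went from -1.60 to 0.58 and 0.49 with a pair left out and was 0.227 without rRNA genes and Lars2. Against digestion it went from -1.55 to 0.58 and 0.53, and was 0.251. Mitochondrial mRNAs against digestion went from -0.00377 to 0.689, and ribosomal proteins against digestion were 0.145 without rRNA genes and Lars2. With the median in place of the longest transcript of each gene, the mean log2 length went from -0.129 to -0.0202, with 2 of 3 pairs then higher with long fragments, and against digestion from -0.0932 to -0.00829 (exact permutation p = 0.9), and transcripts over 4000 bases went from -2.72 to -0.668 points and against digestion from -1.86 to -0.401. The means of the other measures kept their direction under the alternatives run. The GC contrast of the fitted changes was 0.81, lay between 0.52 and 0.98 with a library left out and was 0.21 with all libraries thinned to the shallowest.

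Apoe reversed from 0.25 to -0.23 without the slow long library, -0.22 without the slow pair, -0.23 with 4 libraries, and -0.41, -0.24 and -0.24 without the slow long library with library totals, size factors and DESeq2. With a library left out, Apoe lay between -0.23 and 0.52. Cyp3a11 reversed from -0.17 to 0.16 without that library (-0.39 to 0.16 over the libraries left out) and 0.15 with size factors or DESeq2 there. Over 74 named genes and 27 alternatives, 1562 values stayed on their side, 201 lost and 211 gained a call and 9 reversed. Of the 40 named genes called, none was lost without the slow long library, and 23 more were called. Depth limits what that library can show.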
